A study of Mus musculus with 6 samples.

Results

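The 10 genes described here are transcripts of the p53 response and of cell cycle arrest: Cdkn1a, Phlda3, Bax, Mdm2, Ccng1, Cdkn2a, Trp53inp1, Gdf15, Eda2r and Zmat3. They were chosen by name, and each symbol occurred among the 31276 genes of the deposited tables. Their levels were followed in cells of mouse kidneys that had been obstructed by unilateral ureteral obstruction (UUO), the tying off of a single ureter, in which tubules dilate, tubule cells are injured and scar tissue forms. The SH045 group held kidneys of 3 C57BL/6 mice with UUO that had received the compound SH045, and the Vehicle group held kidneys of 3 C57BL/6 mice with UUO that had received its vehicle. All 6 kidneys were taken 7 days after surgery, and all were obstructed, so that the comparison is between obstructed kidneys. Strain, surgery and day come from the series text and the treatment from the sample labels, which give no dose, route, age or sex. By the series title SH045 inhibits TRPC6, a channel that lets calcium into cells, and the comparison asks how transcript levels in obstructed kidneys change under the compound. The contralateral kidneys and the spatial samples were not analysed here, so no level below is set against an unobstructed kidney.

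The transcription factor p53 is held low in resting cells by Mdm2, a ubiquitin ligase that marks it for breakdown. After DNA damage or other stress p53 accumulates, binds pairs of a short repeated sequence near its target genes and raises their transcription. The products stop the cell cycle (Cdkn1a, which encodes the cyclin-dependent kinase inhibitor p21), promote cell death (Bax), or feed back on p53 itself (Mdm2 and Ccng1). In kidney tubules, p21 and Cdkn2a are commonly read as marks of arrested or senescent cells, and injured tubule cells that stall late in the cycle are known to release factors that act on fibroblasts. Several of these transcripts, Gdf15 among them, are also induced without p53.

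Promoters are shown here because members of a target family can be told apart by the sequence that p53 reads. RefSeq promoter windows (build GRCm38.p6, from 250 bases before to 50 after the annotated start) were found for 8 of the 10 genes, 11 windows in all. Each was searched for the p53 half-site consensus of 10 bases, which reads alike on both strands, so 1 pass covers both. In the lines below, written 5′ to 3′ on the strand of the gene, capitals mark a match.
Cdkn1a, chr17:29090729-29091028, plus strand: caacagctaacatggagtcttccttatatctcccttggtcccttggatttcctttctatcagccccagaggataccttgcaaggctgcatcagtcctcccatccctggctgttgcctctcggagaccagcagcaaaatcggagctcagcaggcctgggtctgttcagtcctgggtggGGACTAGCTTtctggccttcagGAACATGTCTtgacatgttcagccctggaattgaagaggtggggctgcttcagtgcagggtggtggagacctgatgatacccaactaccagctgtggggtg
Bax, chr7:45466849-45467148, minus strand: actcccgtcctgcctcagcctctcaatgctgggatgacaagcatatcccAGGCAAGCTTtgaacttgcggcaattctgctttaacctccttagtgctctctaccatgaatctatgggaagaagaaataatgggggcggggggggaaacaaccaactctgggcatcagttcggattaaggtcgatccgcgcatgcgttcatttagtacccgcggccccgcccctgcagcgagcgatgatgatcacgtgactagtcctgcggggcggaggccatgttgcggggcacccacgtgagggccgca
Ccng1, chr11:40755237-40755536, minus strand: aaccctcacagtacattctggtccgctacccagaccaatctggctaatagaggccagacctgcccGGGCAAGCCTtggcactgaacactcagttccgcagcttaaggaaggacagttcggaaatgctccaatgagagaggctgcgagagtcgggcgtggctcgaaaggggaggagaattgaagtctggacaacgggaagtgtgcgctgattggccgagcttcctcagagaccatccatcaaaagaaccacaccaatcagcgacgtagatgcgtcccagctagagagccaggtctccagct
Mdm2, chr10:117710709-117711008, minus strand: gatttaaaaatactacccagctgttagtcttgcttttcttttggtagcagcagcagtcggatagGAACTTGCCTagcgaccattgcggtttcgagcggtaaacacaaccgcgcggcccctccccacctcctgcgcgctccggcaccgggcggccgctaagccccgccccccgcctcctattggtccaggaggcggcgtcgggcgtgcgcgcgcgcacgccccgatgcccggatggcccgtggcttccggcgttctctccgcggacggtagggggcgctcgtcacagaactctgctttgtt
The Cdkn1a window held 2 matches, which begin 73 and 51 bases before the start site. They lie within the spacer of at most 13 bases that was allowed between paired matches. Bax had 1 match beginning 201 bases before its start, Ccng1 1 at 185 bases and Mdm2 1 at 186 bases. No match stood in the windows of Phlda3, Gdf15, Eda2r or Cdkn2a, nor in the second Cdkn1a window, which says only that these letters are not in those windows. Over all 32851 promoter windows of the same length, 8.36% held a match and 0.0731% held a pair, so a single match is common. A match is a description of sequence and not evidence of binding.

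Single cells were captured on Singleron GEXSCOPE beads, which tag each transcript with a unique molecular identifier (UMI), with 6000 cells targeted per library. The 6 libraries held 25978 barcodes and between 21186872 and 32256602 UMIs each, and 23578 barcodes with at least 200 genes and at most 50% mitochondrially encoded UMIs were kept. Barcodes over that mitochondrial limit made up 10.3%, 10.4% and 16.5% of the SH045 libraries, against 4.17%, 5.29% and 3.56% of the Vehicle libraries. A barcode sequence was shared by 2 or more libraries in 209 cases. Cells were assigned to classes by marker genes that include none of the 10 genes, and 12 classes with at least 20 cells in every library were tested. The injured tubule class was marked by Havcr1, Krt20, Sox9, Dcdc2a, Cdh6 and Vcam1. It held 180, 169 and 203 cells with SH045 and 156, 232 and 179 cells with Vehicle, and all 6 markers were detected. Among its cells 75.7% carried a Havcr1 UMI, against 25.3% of proximal tubule cells. Levels are given as CPM, the UMIs of a gene per 1000000 UMIs of the class, and the fits below compare UMI sums per library with edgeR's quasi-likelihood test and Benjamini-Hochberg adjustment over all genes tested in a class.

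Each gene had its own distribution over the cell classes, and injured tubule stood first or second of the 12 classes in mean level for Cdkn1a, Mdm2, Ccng1, Gdf15, Eda2r and Zmat3. These orders take all gated cells of a class together, and in injured tubule some levels differed between the clusters described below. Most neighbours in the orders overlapped over the 6 libraries. Neighbouring classes stood wholly apart at only 3 steps among the 10 genes, namely Phlda3 between fibroblasts and endothelium, Trp53inp1 between plasma cells and fibroblasts, and Gdf15 between injured and proximal tubule. In the plot of levels by class these 3 steps appear as gaps between rows.

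**Figure D1:**
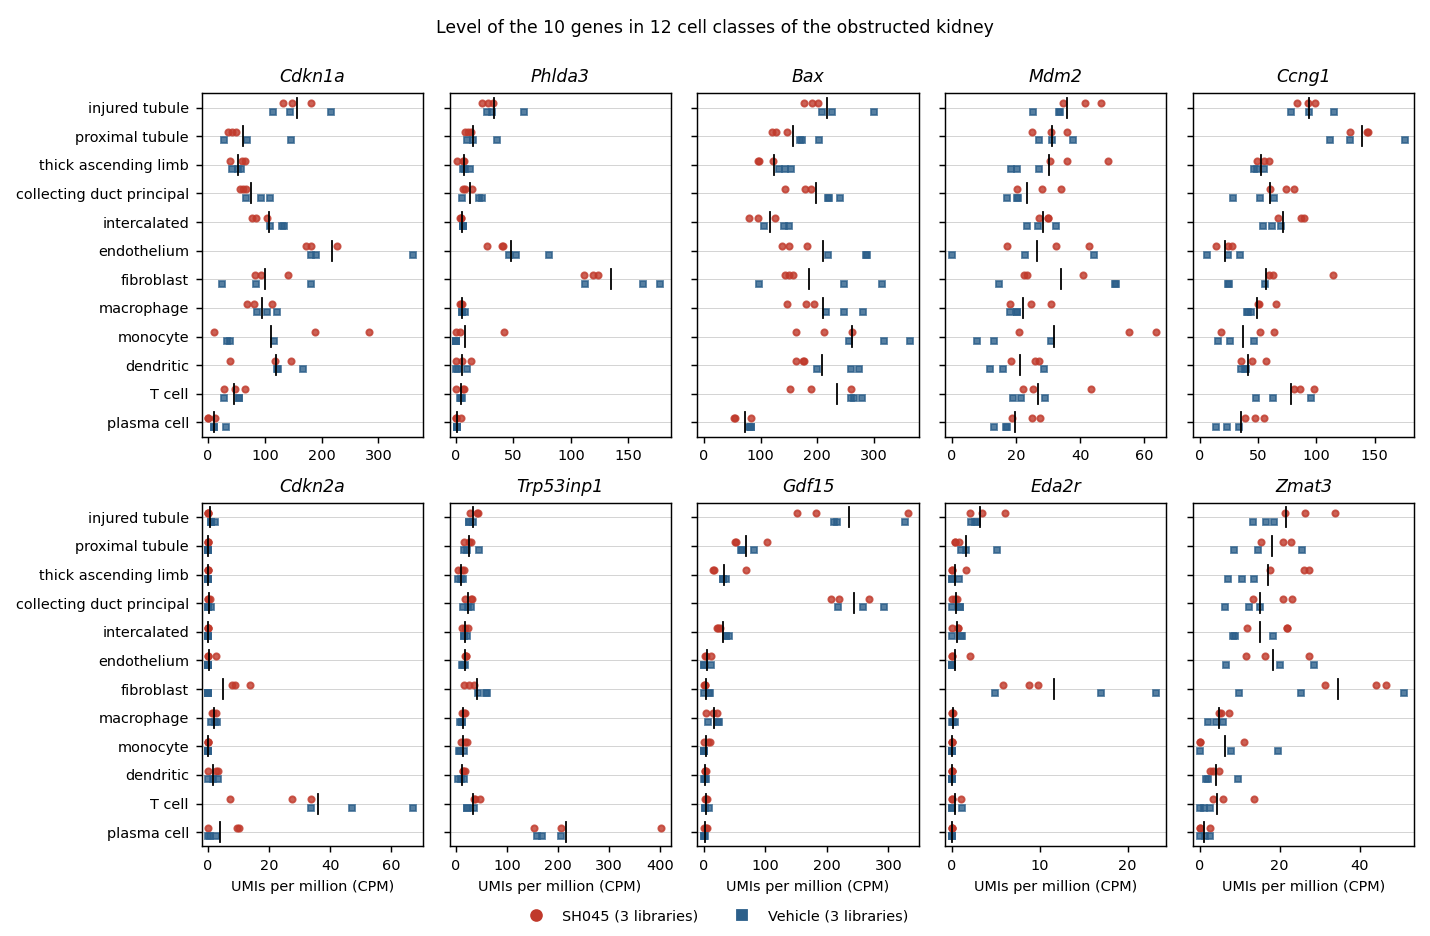
Level of each of the 10 genes in UMIs per 1000000 (CPM, horizontal axes, a separate scale for each gene) in 12 cell classes; circles are the 3 SH045 libraries, squares the 3 Vehicle libraries, and the vertical bar is the mean of all 6. Gdf15 stood at 151 CPM or more in injured tubule and collecting duct principal cells in all 6 libraries, and Trp53inp1 was highest in plasma cells.

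Cdkn1a (chr17:29090976-29100727, plus strand, GRCm38 as for all positions here), whose product p21 blocks cyclin-dependent kinases, had its highest means in endothelium and injured tubule. Injured tubule held 148, 132 and 181 CPM with SH045 and 217, 144 and 114 CPM with Vehicle, a mean of 156 ± 37.1 CPM (SD, n = 6). The level differed within that class. Its cells in cluster 26, described below, which carried the injured tubule markers, averaged 104 CPM with SH045 and 101 CPM with Vehicle. Those means lay below the class means of dendritic cells (119 CPM), monocytes (111 CPM) and intercalated cells. Endothelium averaged 219 ± 71.9 CPM, with 1 Vehicle library at 360.2 CPM, and the libraries of the 2 classes overlapped. Proximal tubule averaged 61.3 ± 43.4 CPM, and its spread came from Vehicle: the SH045 libraries held 48.3, 41.9 and 35.1 CPM, and the Vehicle libraries 28.9, 68.3 and 146 CPM. Vehicle replicate 3 was thus the highest proximal library for Cdkn1a. It was also the highest for Phlda3 (36.0 CPM), Eda2r (5.14 CPM), Ccng1, Bax (204 CPM), Mdm2 (37.7 CPM), Trp53inp1 (45.4 CPM) and Zmat3 (25.7 CPM), and of the 9 members with UMIs in proximal tubule Gdf15 alone was highest in another library. Collecting duct principal cells averaged 75.2 ± 21.0 CPM, intercalated cells 107 ± 23.2 CPM and macrophages 95.6 ± 20.2 CPM. Plasma cells were lowest at 10.9 ± 11.9 CPM.

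Among the regulators of p53 itself, Mdm2 was even across the kidney and Ccng1 was not. Mdm2 (chr10:117688875-117710758, minus strand) ran between 19.8 ± 5.46 CPM in plasma cells and 35.8 ± 7.33 CPM in injured tubule (SD, n = 6), and the libraries of all neighbouring classes overlapped. Ccng1 (chr11:40748552-40755311, minus strand) encodes cyclin G1, which recruits the phosphatase PP2A and acts with Mdm2. It was highest in proximal tubule, with 129, 144 and 144 CPM in the SH045 libraries and 111, 129 and 176 CPM in the Vehicle libraries. Injured tubule came next at 93.7 ± 12.9 CPM, and endothelium was lowest at 21.9 ± 9.89 CPM. All 6 libraries held more Ccng1 in proximal tubule than in collecting duct principal cells, which held 74.2, 60.6 and 80.9 CPM with SH045 and 28.3, 52.1 and 64.0 CPM with Vehicle.

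Of the genes linked to death signalling, Bax was widespread, and Phlda3 and Eda2r were concentrated in fibroblasts. Bax (chr7:45461697-45466898, minus strand) encodes a BCL2-family protein that opens the outer mitochondrial membrane. Its class means ran between 72.8 ± 14.2 CPM in plasma cells and 262 ± 72.0 CPM in monocytes. Phlda3 (chr1:135766119-135769136, plus strand), whose product keeps the kinase Akt off the membrane, had 124, 119 and 111 CPM in SH045 fibroblasts and 178, 113 and 163 CPM in Vehicle fibroblasts. No library of any other class reached those levels, since endothelium, the next class, averaged 47.9 ± 18.1 CPM and injured tubule 33.4 ± 13.3 CPM. Eda2r (chrX:97333840-97377216, minus strand) encodes a receptor of the tumour necrosis factor receptor family that binds ectodysplasin A2. It was sparse, with 31 UMIs over all fibroblasts (11.6 ± 7.12 CPM), 32 UMIs over all injured tubule cells (3.20 ± 1.48 CPM) and at most 19 UMIs over any other class.

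Trp53inp1 (chr4:11156431-11174379, plus strand), a stress protein linked to autophagy and cell death, was a plasma cell transcript in these kidneys. Plasma cells held 401, 154 and 206 CPM with SH045 and 159, 207 and 169 CPM with Vehicle. All of these libraries lay above every fibroblast library, the next class at 40.2 ± 17.9 CPM (SD, n = 6). Zmat3 (chr3:32334792-32366014, minus strand) encodes a zinc finger protein that binds RNA. It averaged 34.7 ± 15.6 CPM in fibroblasts and 21.7 ± 7.38 CPM in injured tubule, and its libraries overlapped between those classes.

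Gdf15 (chr8:70629393-70632456, minus strand), a secreted stress cytokine of the TGF-beta superfamily, was a tubule transcript. Collecting duct principal cells held 208, 268 and 219.5 CPM with SH045 and 219, 259 and 293 CPM with Vehicle. Injured tubule held 182, 151 and 333 CPM with SH045 and 327, 216 and 212 CPM with Vehicle. The libraries of these 2 classes overlapped, and both stood apart from proximal tubule (68.0 ± 19.9 CPM, SD, n = 6). Thick ascending limb followed at 33.1 ± 19.2 CPM, intercalated cells at 30.6 ± 8.15 CPM and macrophages at no more than 24.6 CPM in any library. Endothelium, fibroblasts, monocytes, dendritic cells, T cells and plasma cells all had means under 5 CPM.

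Cdkn2a (chr4:89274471-89294653, minus strand) encodes p16Ink4a, an inhibitor of cyclin-dependent kinases, and p19Arf, which binds Mdm2, from the same gene in different reading frames, and the counts cannot separate them. It was a T cell transcript here, with 33.7, 27.4 and 7.23 CPM in the SH045 libraries and 67.0, 47.0 and 33.7 CPM in the Vehicle libraries. Fibroblasts held 7.79, 13.7 and 8.80 CPM in the SH045 libraries, and 0 in each Vehicle library. Injured tubule held 0 in each SH045 library, and 0.961, 2.20 and 1.03 CPM in the Vehicle libraries. No Cdkn2a UMI was counted in proximal tubule, thick ascending limb, intercalated cells or monocytes. Counts were too few for a test outside T cells, macrophages and whole libraries. Over the group, 28 UMIs in SH045 fibroblasts stood against 0 in Vehicle fibroblasts, where a count of 0 allows up to 5.58 CPM. That puts the level at least 1.83-fold higher with SH045 if the 28 UMIs are taken as exact. The 0 UMIs in SH045 injured tubule cells allow up to 0.654 CPM, against 9 UMIs with Vehicle. That puts the level at least 2.41-fold lower with SH045 if the 9 UMIs are taken as exact. Among the clusters of these cells described below, cluster 26, which carried the injured tubule markers, held 0, 0.632 and 0.786 CPM with Vehicle. Unnamed cluster 31 held 0, 25.3 and 16.3 CPM with Vehicle, and cells outside the larger clusters held 14.3, 0 and 0 CPM. Both fold bounds put a floor of 3 counts on the group at 0 and take the count of the other group as exact. They cover the counting error of the group at 0 only. Fibroblasts numbered 132, 164 and 90 cells with SH045 and 21, 28 and 30 cells with Vehicle.

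The injured tubule was set against 2 other tubule classes within the same libraries. The share of all genes called was large in both contrasts, 49.5% of 10171 genes against proximal tubule (25.4% higher, 24.1% lower) and 48.7% of 10266 genes against collecting duct principal cells (24.7% higher, 24.0% lower). Of the 10 genes, 8 passed the low-count filter in each contrast, and Cdkn2a and Eda2r did not. Scaling by TMM factors took a log2 shift of 0.38 out of the injured to proximal ratio of CPM, and 0.04 out of the other contrast, and log2 differences below are relative to that shift.

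Against proximal tubule, Gdf15 was higher and Ccng1 lower in injured tubule cells, 2 of 8 genes called. Gdf15 was higher by a log2 of 1.43 ± 0.11 (SE, edgeR adjusted p = 1.74e-10) and higher in 6 of 6 libraries. Ccng1 was lower by 0.93 ± 0.11 (edgeR adjusted p = 3.63e-07), and in CPM it was lower in 5 of 6 libraries. Cdkn1a was not called, at 1.12 ± 0.44 (adjusted p = 0.0908, 95% interval 0.00 to 2.23), nor was Phlda3, at 0.84 ± 0.35 (adjusted p = 0.0790). Vehicle replicate 3 alone held more of both transcripts in proximal than in injured tubule. Without that library Cdkn1a was 1.48 higher (adjusted p = 0.00635) and Phlda3 1.18 higher (adjusted p = 4.80e-04), and both were also called by DESeq2 and when classes were taken from clusters. Bax (0.10 ± 0.09), Trp53inp1 (0.05 ± 0.22), Zmat3 (−0.09 ± 0.18) and Mdm2 (−0.16 ± 0.15) were not called. For Mdm2 and Zmat3 the mean CPM was higher in injured tubule, and the sign turned with the scaling shift.

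Against collecting duct principal cells, 5 of 8 genes were higher in injured tubule, and none was lower. They were Cdkn1a at 1.00 ± 0.17 (edgeR adjusted p = 5.52e-04), Phlda3 at 1.43 ± 0.23 (adjusted p = 3.46e-05), Mdm2 at 0.55 ± 0.17 (adjusted p = 0.0110), Ccng1 at 0.56 ± 0.17 (adjusted p = 0.0161) and Zmat3 at 0.46 ± 0.18 (adjusted p = 0.0452). The call for Zmat3 was lost in 11 of the alternative settings, that for Mdm2 in 2 and that for Ccng1 in 1. Gdf15 did not pass (−0.14 ± 0.21, adjusted p = 0.628), with a 95% interval of −0.64 to 0.36. The median over the 8 genes was 0.50, against 0.00 over all genes tested, and against proximal tubule it was 0.08, against 0.02.

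**Figure D2:**
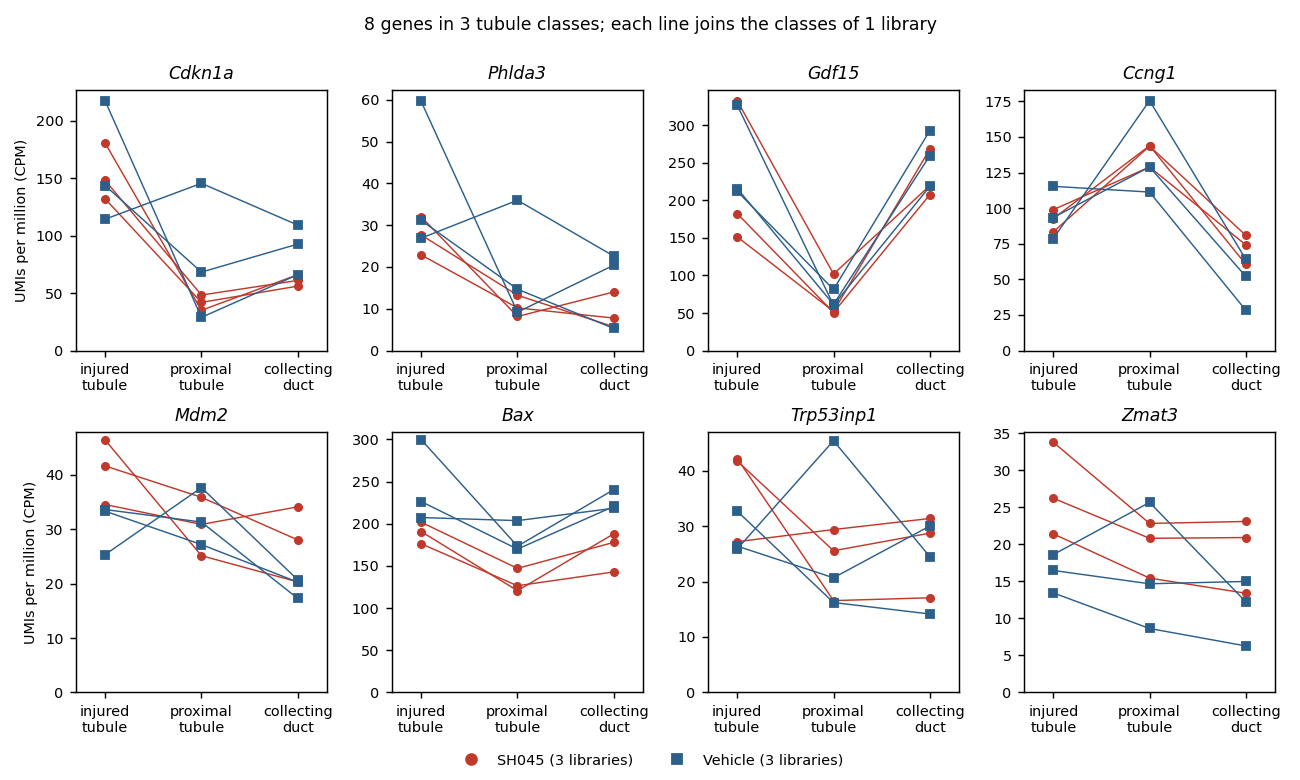
Level in UMIs per 1000000 (CPM, vertical axes) of 8 genes in injured tubule, proximal tubule and collecting duct principal cells; each line joins the 3 classes of 1 library, circles for SH045 and squares for Vehicle. Gdf15 dipped in proximal tubule in all 6 libraries, and Vehicle replicate 3 alone rose in proximal tubule for Cdkn1a and Phlda3.

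None of the 8 genes tested was called with SH045 in injured tubule cells, where 4.22% of 10360 genes were called. At an unadjusted p under 0.05 there were 2 of 8, Bax and Zmat3, against 23.0% of all genes in this class, and DESeq2 called 0. Cdkn1a had a log2 difference of −0.11 ± 0.21 (SH045 over Vehicle, ± SE, edgeR adjusted p = 0.794), with a 95% interval of −0.59 to 0.36. Libraries overlapped for Cdkn1a, Phlda3, Ccng1, Trp53inp1 and Gdf15. They did not overlap for 3 genes, against 28.2% of all genes in this class. Bax was at 176, 202 and 191 CPM with SH045 and 299.9, 226 and 207 CPM with Vehicle, a difference of −0.45 ± 0.14 (adjusted p = 0.0755, 95% interval −0.75 to −0.15). Bax was called there without the low-count filter (adjusted p = 0.0495) and with classes taken from clusters (adjusted p = 0.00286), and over all alternatives its adjusted p ran to 0.557, with the trend on transcript length removed. Mdm2 was at 46.4, 34.6 and 41.7 CPM with SH045 and 33.6, 33.3 and 25.3 CPM with Vehicle (0.32 ± 0.20, adjusted p = 0.362). Zmat3 was at 26.2, 21.4 and 33.8 CPM with SH045 and 13.5, 16.5 and 18.6 CPM with Vehicle (0.62 ± 0.25, adjusted p = 0.153). The remaining differences were −0.52 ± 0.27 for Phlda3, −0.25 ± 0.37 for Gdf15, −0.15 ± 0.15 for Ccng1 and 0.31 ± 0.22 for Trp53inp1.

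Proximal tubule and collecting duct principal cells gave no call among 8 genes each, where 0.0288% and 2.35% (1.34% higher, 1.01% lower) of all genes were called. In proximal tubule 1 of 8 genes had an unadjusted p under 0.05, against 9.93% of all genes. It was Bax at −0.55 ± 0.16 (edgeR adjusted p = 0.303), and Cdkn1a had the widest estimate, −0.92 ± 0.59. In collecting duct principal cells 3 of 8 genes had an unadjusted p under 0.05, against 17.9% of all genes. Cdkn1a held 61.0, 56.1 and 66.0 CPM with SH045 and 66.0, 92.7 and 109 CPM with Vehicle, and the difference was −0.61 ± 0.19 (adjusted p = 0.0884). The highest SH045 library and the lowest Vehicle library both stood at 66.0 CPM. Bax (−0.44 ± 0.16) and Ccng1 (0.49 ± 0.22) were the others. The difference between the effects of SH045 in injured and in proximal tubule was tested as an interaction. It passed for 0 of 8 genes at either an adjusted or an unadjusted p under 0.05, by edgeR and by DESeq2, where 0.0180% of all genes were called and 8.73% had an unadjusted p under 0.05, and for Cdkn1a it was 0.67 ± 0.93.

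Intercalated cells, which secrete acid or base in the collecting duct, were the class in which Cdkn1a and Gdf15 came nearest to a call. Cdkn1a held 104, 77.9 and 84.1 CPM with SH045 and 130.2, 135 and 109.9 CPM with Vehicle (−0.56 ± 0.16, edgeR adjusted p = 0.0627). Gdf15 held 23.1, 21.2 and 26.0 CPM with SH045 and 36.6, 36.0 and 40.7 CPM with Vehicle (−0.75 ± 0.21, adjusted p = 0.0619). The groups did not overlap for either gene, against 22.8% of all genes in this class, and 0 of 7 genes passed where 1.95% of all genes did. Thick ascending limb had 0 of 7 calls where 0.136% of all genes were called. Zmat3 held 17.5, 26.1 and 27.3 CPM there with SH045 and 6.97, 13.5 and 10.5 CPM with Vehicle (0.98 ± 0.34, adjusted p = 0.227).

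Among the remaining classes no gene of the 10 passed. Endothelium had 3 genes tested and 0.418% of all genes called, fibroblasts 7 and 0.0627%, monocytes 2 and 0.0469%, dendritic cells 4 and 0.302%, T cells 6 and 0.362%, and plasma cells 4 and 0.912%. In fibroblasts Ccng1 was at 114, 59.5 and 63.1 CPM with SH045 and 25.4, 24.5 and 55.8 CPM with Vehicle (1.16 ± 0.41, edgeR adjusted p = 0.464). Trp53inp1 was at 36.0, 25.4 and 16.1 CPM in SH045 fibroblasts and 59.3, 44.0 and 60.5 CPM in Vehicle fibroblasts (−0.96 ± 0.40, adjusted p = 0.536). The Cdkn2a difference in T cells was −1.02 ± 0.40 (adjusted p = 0.333), with 53 UMIs over the SH045 cells and 82 over the Vehicle cells. In T cells the summed mitochondrially encoded genes stood at 43133, 39287 and 47097 CPM with SH045 and 23886, 27724 and 25204 CPM with Vehicle, and the summed macrophage markers at 367, 308 and 410.5 CPM against 759, 608 and 769 CPM. Their part in the Cdkn2a values was not tested. The 209 shared barcode sequences were left in, and their part in any result was not tested.

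**Figure D3:**
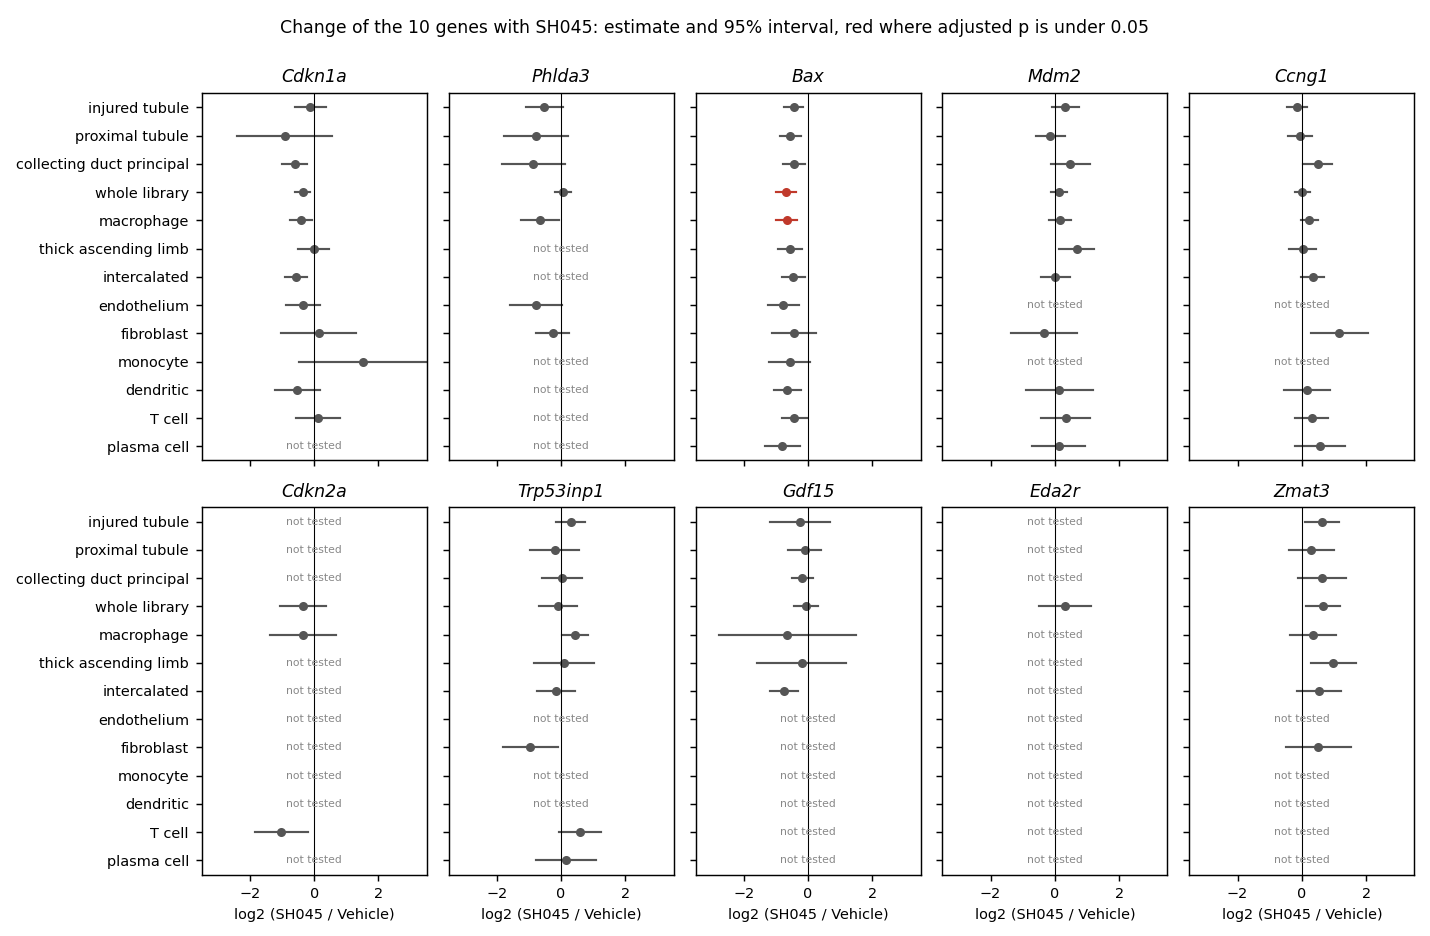
Log2 difference (SH045 over Vehicle, horizontal axes) of each of the 10 genes in 12 classes and in whole libraries; points are estimates, lines 95% intervals, and red marks an edgeR adjusted p under 0.05. Bax in whole libraries and in macrophages are the only marked points.

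Bax was the 1 member that passed with SH045, in whole libraries and in macrophages. Summed over all kept cells it stood at 143, 166 and 161 CPM in the SH045 libraries and 231, 207 and 205 CPM in the Vehicle libraries (157 ± 12.3 against 214 ± 14.5 CPM, SD, n = 3 each). It fell by 0.69 ± 0.14 on the log2 scale (edgeR adjusted p = 0.0362), 1 of 10 genes where 4.31% of 16532 genes were called (2.95% higher, 1.36% lower). In macrophages, the largest class, it stood at 147, 194 and 179 CPM with SH045 and 280.5, 248 and 215 CPM with Vehicle. It fell there by 0.66 ± 0.16 (adjusted p = 0.0200), 1 of 9 genes where 10.7% of 12083 genes were called (5.59% higher, 5.09% lower). Over the 12 classes, whose sums come from the same 6 libraries, the Bax difference lay between −0.42 in T cells and −0.80 in plasma cells. A whole-library sum mixes the classes, and fewer cells of a type and less RNA per cell cannot be told apart in it.

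The Bax calls were near the limit. Leaving out any 1 library ended the call in whole libraries, with adjusted p between 0.0651 and 0.136. In macrophages leaving out SH045 replicate 1 or 3 or Vehicle replicate 1 or 2 ended it, with adjusted p between 0.0517 and 0.0964, while without SH045 replicate 2 or Vehicle replicate 3 it held. Log2 differences rose with transcript length across all genes, with a Spearman correlation of 0.43 in whole libraries and 0.46 in macrophages (across genes, which are not independent). The longest annotated Bax transcript is 1100 bases, against 7797 bases for Zmat3, which averaged 15.5 ± 2.22 CPM in SH045 whole libraries and 8.25 ± 2.52 CPM in Vehicle ones (SD, n = 3 each). With that trend removed, Bax stood at −0.46 (adjusted p = 0.0620) in whole libraries and −0.42 (adjusted p = 0.0573) in macrophages, and neither was called. TMM scaling took a log2 shift of 0.24 out of the ratio in whole libraries and 0.16 in macrophages. In whole libraries Phlda3, Mdm2, Ccng1, Eda2r and Zmat3 were higher in CPM in every SH045 library, and their scaled differences were 0.06, 0.14, 0.01, 0.32 and 0.67, with none called. With Bax that made 6 genes whose groups did not overlap, against 39.7% of all genes. Cdkn1a was at −0.35 ± 0.10 (adjusted p = 0.0825) and was called by DESeq2 (adjusted p = 0.0109).

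**Figure D4:**
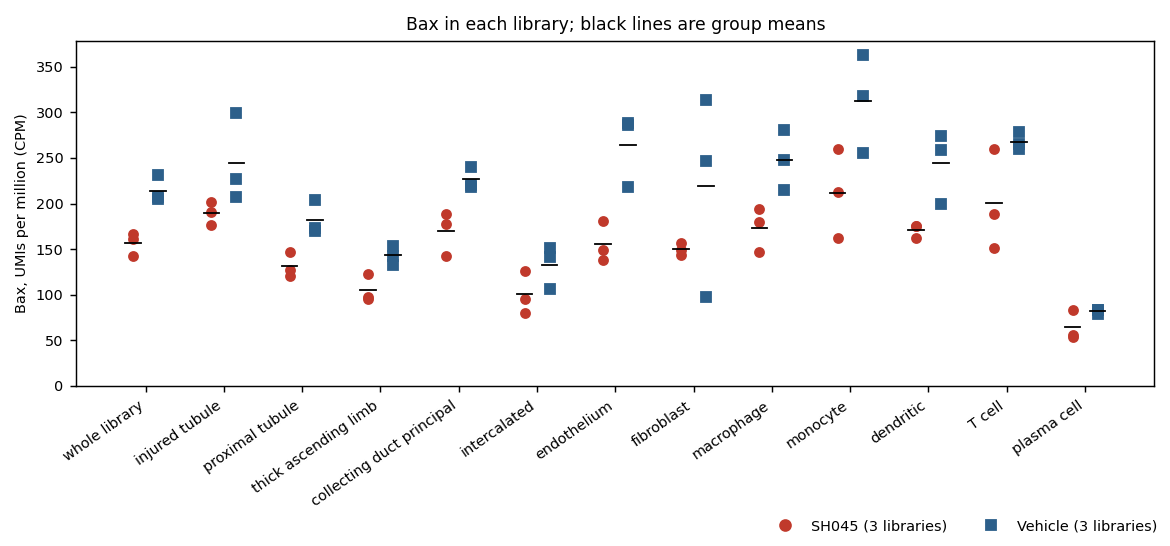
Level of Bax in UMIs per 1000000 (CPM, vertical axis) in whole libraries and 12 classes; circles are the 3 SH045 libraries, squares the 3 Vehicle libraries, and black lines the group means. The group mean was lower with SH045 in each class plotted, and in whole libraries 143 to 166 CPM stood against 205 to 231 CPM.

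Other genes of the pathway were read from lists. Of 32 other p53 targets, 25 were tested in injured tubule, and 0 were higher and 1 lower with SH045 (2.36% of all genes were higher and 1.85% lower), with a median of −0.23 against 0.00 over all genes. The gene was Sfn, an inhibitor of the G2 to M transition also known as 14-3-3 sigma, at 89.5, 84.3 and 90.6 CPM with SH045 and 173, 116 and 102 CPM with Vehicle (−0.64 ± 0.17, edgeR adjusted p = 0.0403). In collecting duct principal cells 0 rose and 2 of 24 fell, namely Sfn (−0.96 ± 0.15, adjusted p = 0.00114) and Ddit4 (−0.68 ± 0.17, adjusted p = 0.0293), an inhibitor of mTORC1. Sfn also fell in intercalated cells, by 0.61 ± 0.15 (adjusted p = 0.0304). With the trend on transcript length removed, only the Sfn call in collecting duct principal cells held among these. Macrophages had 1 of 30 higher, Ercc5 of nucleotide excision repair (0.66 ± 0.17, adjusted p = 0.0245), and 4 lower, among them Ephx1, Plk3 and Rps27l, and with the length trend removed 0 were higher and 3 lower. Whole libraries had 0 of 32 higher and 1 lower, Pmaip1 (−0.55 ± 0.10, adjusted p = 0.0266), which encodes the death-promoting protein Noxa.

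Of 17 genes for p53 and its regulators, 15 were tested in injured tubule. Trp53bp2, which encodes a p53-binding protein that favours death genes, rose by 0.78 ± 0.20 with SH045 (edgeR adjusted p = 0.0359), at 52.5, 38.7 and 52.5 CPM against 23.1, 28.6 and 25.3 CPM with Vehicle, and 0 fell. That call ended with the length trend removed (adjusted p = 0.125). Injured against proximal tubule, 3 of 13 were higher and 1 lower, where 25.4% of all genes were higher and 24.1% lower, and Trp53 itself was 1.06 ± 0.13 higher (adjusted p = 3.02e-07). It was 0.52 ± 0.12 higher than in collecting duct principal cells (edgeR adjusted p = 0.00141), where 2 of 14 genes of the list were higher and 2 lower in injured tubule. Among the other p53 targets 9 of 23 were higher and 3 lower in injured than in proximal tubule, including Sfn (3.47 ± 0.22), Ddit4 (2.26 ± 0.15), Plk2 (2.23 ± 0.20) and Dcxr (−2.46 ± 0.12), a carbonyl reductase. Against collecting duct principal cells, where 24.7% of all genes were higher and 24.0% lower, 4 of 24 were higher, among them Fas, the death receptor (1.53 ± 0.25), and 8 were lower, among them Sfn (−0.93 ± 0.11).

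Of the other inhibitors of cyclin-dependent kinases, 4 of 5 were tested in each of these contrasts. Cdkn2b, which encodes p15, was 2.03 ± 0.35 higher in injured than in proximal tubule (edgeR adjusted p = 8.72e-05), and Cdkn2c was 0.69 ± 0.19 lower there. Against collecting duct principal cells 0 were higher and 3 lower, Cdkn1b (−1.17 ± 0.12), Cdkn2d (−0.90 ± 0.22) and Cdkn2c (−0.58 ± 0.22). With SH045 none of the 4 was called in injured tubule. Of 20 factors that senescent cells are known to secrete, 12 were tested, of which 11 were higher in injured than in proximal tubule and 1, Igfbp4, lower. All 12 were higher than in collecting duct principal cells. With SH045, 0 rose and 2 fell in injured tubule, the chemokine Ccl2 (−0.89 ± 0.15, adjusted p = 0.00703) and the protease inhibitor Timp1 (−0.95 ± 0.22, adjusted p = 0.0239). Both calls ended with the length trend removed, with adjusted p of 0.0927 and 0.157.

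Of 19 genes of the BCL2 family and caspases, 16 were tested in injured tubule, and with SH045 0 rose and 1 fell, Bik (−0.54 ± 0.14 on the log2 scale, edgeR adjusted p = 0.0327), which promotes death. The median of the list was −0.05. Bik stood 1.33 ± 0.13 higher in injured than in proximal tubule and 2.02 ± 0.13 higher than in collecting duct principal cells. Against proximal tubule, 6 of 16 genes of the list were higher in injured tubule and 2 lower. Against collecting duct principal cells 2 of 17 were higher and 5 lower. Of 28 genes of tubule injury that did not choose the class, 27 were tested, of which 23 were higher in injured than in proximal tubule and 0 lower. Set against collecting duct principal cells, 17 of 27 were higher and 8 lower. With SH045 1 rose, Atf4 (0.65 ± 0.17, adjusted p = 0.0377), a stress response factor, and 3 fell, Anxa2 (−0.78 ± 0.13), Nupr1 (−1.03 ± 0.17) and Spp1 (−0.57 ± 0.15), which encodes osteopontin. The median of these genes was −0.41, against 0.00 over all genes tested. With the trend on transcript length removed, the calls of Bik and Spp1 ended (adjusted p = 0.314 and 0.322), and those of Atf4, Anxa2 and Nupr1 held. Of the 10 G1 cyclins and kinases, 9 were tested with SH045 and none was called. Cdk4 and Cdk6 were 0.97 ± 0.10 and 1.21 ± 0.14 higher in injured than in proximal tubule, and Ccnd1 was lower (−0.61 ± 0.10). Of this list 2 of 8 genes were higher and 3 lower than in collecting duct principal cells.

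Of 40 genes of S phase and G2/M, 33 were tested in gated injured tubule cells with SH045 against Vehicle, of which 0 rose, 13 fell and 20 were not called. The median was −0.87 against 0.00 over all genes. With the length trend removed 9 fell, and without Vehicle replicate 2 the count was 7 and without SH045 replicate 2 it was 8. The same genes gave 0 calls of 36 for the difference between injured and proximal tubule in the effect of SH045. Ccnb2, a mitotic cyclin, stood at 64.6, 51.8 and 44.1 CPM with SH045 and 159, 145 and 196 CPM with Vehicle (−1.74 ± 0.16, edgeR adjusted p = 1.93e-05). Cdk1, its kinase partner, stood at 17.5, 14.5 and 10.3 CPM with SH045 and 46.1, 50.6 and 29.0 CPM with Vehicle (−1.68 ± 0.27, adjusted p = 0.00470). Rrm2, for nucleotide supply in S phase, and Birc5, for chromosome segregation, fell by 1.74 ± 0.23 and 1.59 ± 0.26. Genes of DNA replication were among those not called, with Mcm2 at −0.16 ± 0.17, the clamp gene Pcna at −0.13 ± 0.16 and Mcm3 at 0.24 ± 0.29. Summed over the 40 genes the level was 1101, 945 and 889 CPM with SH045 and 1643, 1635 and 1463 CPM with Vehicle, and the groups did not overlap. The same list was higher in injured tubule than in both other tubule classes, with 24 of 31 called against proximal tubule and 19 of 31 against collecting duct principal cells, and 0 lower.

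The level of cycle genes differed between clusters of the gated cells. When the cells were clustered without the 10 genes and the listed genes, 694 of the 1119 gated cells fell in cluster 26, which carried the injured tubule markers. The summed cycle level in those cells was 717, 591 and 583 CPM with SH045 and 604, 539.6 and 630.4 CPM with Vehicle, and the groups overlapped. Cluster 22, led by Serpina1f and Serpina1d and left unnamed, held 20, 15 and 38 of the gated cells with SH045 and 44, 44 and 36 with Vehicle. The cycle level there was 6803, 4856 and 2323 CPM with SH045 and 3875, 5191 and 4526 CPM with Vehicle. Cluster 16, also unnamed, was led by Slc12a3, a marker of the distal convoluted tubule. It held 19, 22 and 18 gated cells with SH045 and 2, 31 and 18 with Vehicle. Its cycle level ran between 234 and 327 CPM with SH045 and between 280 and 346 CPM with Vehicle. Cluster 31, also unnamed and led by Cfd, Car3 and Adipoq, held 70 gated cells. The cycle level there was 426, 622 and 412 CPM with SH045 and 2711, 2773 and 4791 CPM with Vehicle. Cluster 22 made up 12.9% of gated cells on average with SH045 and 22.4% with Vehicle (two-sided exact permutation p = 0.1, with 3 libraries a group the lowest value attainable). With classes taken from the clusters, 0 of 20 cycle genes were called, and the median was 0.06. These clusters were looked at after the values were seen.

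Cdkn1a, Gdf15 and Ccng1 stood higher in every library in the gated cells of cluster 22 than in any library in those of cluster 26. The libraries of Bax, Mdm2, Phlda3, Trp53inp1 and Zmat3 overlapped between the clusters. How many of all genes stood apart between these clusters was not computed, so there is no background for these counts. Cdkn1a stood at 403, 182 and 283 CPM with SH045 and 373, 301 and 163 CPM with Vehicle in the gated cells of cluster 22. In cluster 26 it stood at 125, 99.3 and 88.3 CPM with SH045 and 124, 85.3 and 94.3 CPM with Vehicle, below every value of cluster 22. Gdf15 stood at 709, 349 and 579 CPM with SH045 and 499.9, 525 and 452 CPM with Vehicle in cluster 22, against 158, 128 and 237 CPM with SH045 and 271, 159 and 169.8 CPM with Vehicle in cluster 26. Bax in cluster 26 stood at 170.0, 198.7 and 157 CPM with SH045 and 277, 223 and 199.7 CPM with Vehicle. Zmat3 there stood at 20.2, 23.7 and 29.7 CPM with SH045 and 8.16, 9.48 and 15.7 CPM with Vehicle. The groups did not overlap for either gene, lower with SH045 for Bax and higher for Zmat3. The share of all genes without overlap between SH045 and Vehicle was not computed within clusters, and over all gated cells it was 28.2%. No test was made within clusters.

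Other measures moved with the groups in the gated cells. The 6 injured tubule markers summed to between 3207 and 3515 CPM with SH045 and between 3567 and 4011 CPM with Vehicle, and the mitochondrially encoded genes to between 53781 and 73745 CPM with SH045 and between 44189 and 52954 CPM with Vehicle. The 8 macrophage markers ran between 752 and 878 CPM with SH045 and between 868 and 1064 CPM with Vehicle, the 10 proximal tubule markers overlapped, and summed fat cell genes were at most 1.92 CPM. Their part in the result was not tested.

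**Figure D5:**
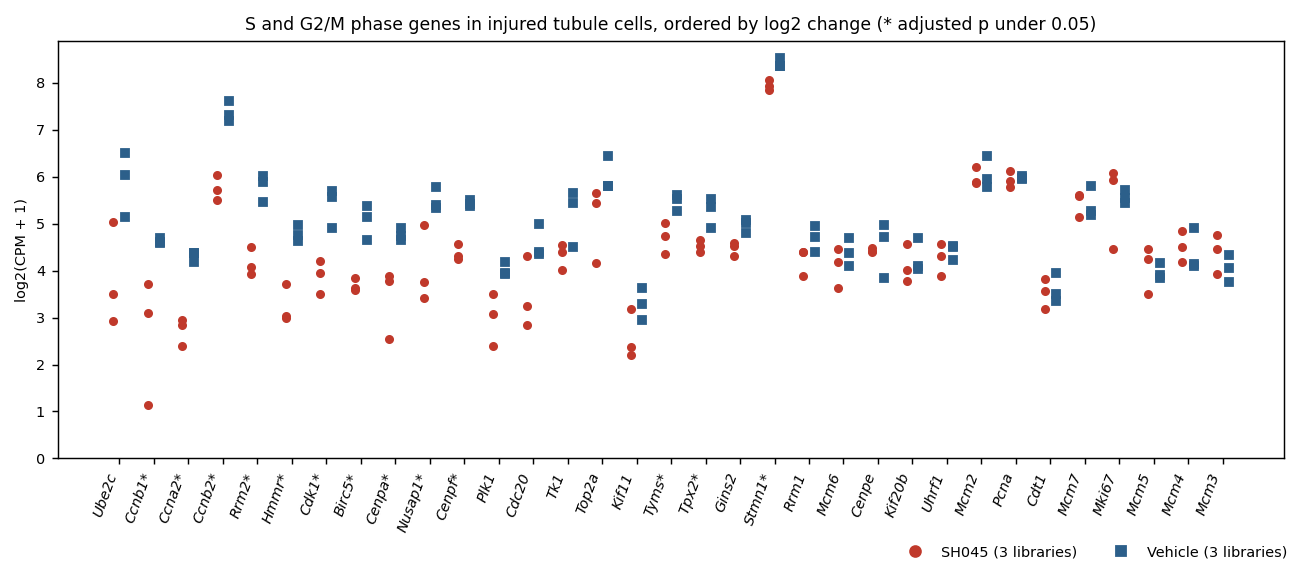
Level of the 33 tested S and G2/M phase genes in gated injured tubule cells, as log2(CPM + 1) on the vertical axis, ordered by log2 difference; circles are the 3 SH045 libraries, squares the 3 Vehicle libraries, and an asterisk marks an edgeR adjusted p under 0.05. The 13 marked genes, Ccnb2 among them, lie lower with SH045.

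Cells with and without a Cdkn1a UMI were compared within the injured tubule class, because p21 is an arrest factor. Every cell was first thinned to 2000 UMIs, since depth raises the chance of seeing any gene. A Cdkn1a UMI was then found in 16.7%, 12.4% and 19.2% of injured tubule cells with SH045 and in 28.8%, 19.0% and 12.8% with Vehicle (exact permutation p = 0.5). Unthinned SH045 cells gave shares of 33.9%, 26.6% and 31.5%, and unthinned Vehicle cells 44.9%, 40.5% and 36.3% (exact permutation p = 0.1, the smallest possible). Plasma cells, the class lowest in Cdkn1a, gave thinned shares of 2.41%, 0% and 0% with SH045 and 7.87%, 1.90% and 2.96% with Vehicle, at a median of 8309 UMIs per cell against 7189 in injured tubule.

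The difference in cycle genes between the 2 kinds of cell varied between settings, and each thinning was a new random draw. After thinning, the S and G2/M sum was 1783, 1095 and 833 CPM in cells with a Cdkn1a UMI and 1117, 743 and 619 CPM in cells without one, in the SH045 libraries. In the Vehicle libraries it was 2000, 1011 and 696 CPM in cells with one and 1221, 1468 and 1458 CPM in cells without one. The mean log2 difference was 0.13 ± 0.75 (SD, n = 6, two-sided exact sign-flip permutation p = 0.625), and it was above 0 in 4 of 6 libraries. Without thinning it was 0.49 ± 0.46, above 0 in 5 of 6 libraries (exact permutation p = 0.0938). Its sign turned at 1000 UMIs per cell, at −0.50 (exact permutation p = 0.281). With a mitochondrial limit of 20% it was 0.37 ± 0.23 and above 0 in 6 of 6 libraries (exact permutation p = 0.0312, the smallest that 6 libraries allow). That setting kept fewer cells and drew its thinning anew. Cells with a Cdkn1a UMI numbered 32, 24 and 42 with SH045 and 38, 48 and 25 with Vehicle. In the main draw they numbered 30, 21 and 39 with SH045 and 45, 44 and 23 with Vehicle. The part of the filter cannot be told apart from that of the draw.

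Genes with the most similar distribution over the 12 classes were named for Cdkn1a and Gdf15 by the correlation of mean log2(CPM + 1), among 10904 genes with at least 20 CPM in a class. For Cdkn1a they were Rab7 (Pearson r = 0.941), Fxr1, Ppp2r3d, Zswim8 and March7. For Gdf15 they were Rab20 (r = 0.951), Rgn, Bex1, Veph1 and BC067074. The points share libraries, and no test was made.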

How the data were processed

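Kidney cells of 3 SH045 and 3 Vehicle mice were analysed from the UMI count matrices that the authors deposited, raw counts per gene and barcode. Libraries were made with the Singleron GEXSCOPE kit, per the labels' protocols, and the genome build was mm10, per the submitters' processing notes. The aligner, the counter, the cell filter and the use of strand are not given in the sources used here. P-values measure the spread between kidneys of 6 mice.

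Each matrix already held only barcodes of at least 2166 UMIs. Barcodes with at least 200 genes and at most 50% mitochondrially encoded UMIs were kept (23578 of 25978). A cell joined the class with the highest marker score where at least 2 of its markers were detected, which named 20174 cells and left 3206 unnamed and 198 mixed. Leiden clustering left out the 10 genes and the listed genes (scanpy 1.11.5), and 30 of 39 clusters were named. Of the named cells in named clusters, 92.9% had the class of their cluster, and cells in unnamed clusters were not counted. Of the 1119 gated injured tubule cells, 694 lay in the injured tubule cluster. No doublets were removed in the main analysis, and an alternative took out the 5% of cells with the highest Scrublet scores. UMI counts were summed per library and class and tested with edgeR 4.0.16 (TMM, its low-count filter, robust quasi-likelihood, Benjamini-Hochberg over all genes tested in the class). Contrasts between classes had the library as a block. CPM values were computed from the sums, with a pseudocount of 1 where logged. DESeq2 1.42.0 was an alternative. Replicate numbers were not treated as pairs: the correlations of same-numbered deviations lay between −0.11 and 0.26. On simulated counts for injured tubule the edgeR step recovered 53% of genes changed 2-fold and 92% of those changed 4-fold. Of genes changed 2-fold it recovered 44% in macrophages, 18% in whole libraries and 23% for injured against proximal tubule.

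The 10 genes and the lists were chosen with earlier results of these data known. Named genes are all 10 members, and per list and comparison up to 4 called genes with the smallest p; for Cdkn1a and Gdf15 the 5 genes most alike over classes are added. Transcript lengths are the longest per gene of GENCODE M21. An annotated gene overlaps Cdkn1a on the opposite strand (AC167363.2) and another overlaps Bax on its own strand (Gm45808), and neither is in the count tables. The intervals come from the edgeR fits on library sums and so take in the spread between libraries. The floors cover only the counting error of a group without counts.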

Additional observations from a re-analysis of the deposited data

Results flagged for a closer look

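Cdkn2a moved in opposite directions between cell classes, in CPM and with every library of the groups apart. The mean with SH045 minus that with Vehicle was 10.1 CPM in fibroblasts, −1.40 CPM in injured tubule and −26.5 CPM in T cells. The counts were small, with 28 UMIs with SH045 and 0 with Vehicle in fibroblasts, 0 and 9 in injured tubule, and 53 and 82 in T cells. Trp53inp1 stood higher with SH045 by 5.18 CPM in endothelium, 5.47 CPM in macrophages and 14.6 CPM in T cells, and lower in fibroblasts, at −28.8 CPM. In endothelium it had 10, 7 and 7 UMIs with SH045 and 2, 3 and 3 with Vehicle. The groups did not overlap for 15.8% of all genes tested in fibroblasts, 28.2% in injured tubule and 16.8% in T cells. In endothelium the share was 18.4% and in macrophages 36.8%. These shares are over genes that passed the low-count filter. Cdkn2a in fibroblasts and injured tubule and Trp53inp1 in endothelium did not pass it, so no matching share stands beside them. For Cdkn2a in T cells the highest SH045 and the lowest Vehicle library were alike to the digits printed above. For both genes the difference between classes was not tested, and no class passed the threshold for either gene where it was tested.

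Barcodes over 50% mitochondrially encoded UMIs, which entered no comparison, held more of 3 members with SH045 than with Vehicle, in CPM of nuclear UMIs and with every library of the groups apart. Of the 7 members with at least 20 UMIs there, 3 were higher in this way and 0 lower, where 7.79% of 7846 genes were higher. Cdkn1a averaged 46.1 CPM with SH045 and 14.8 CPM with Vehicle, from 40 and 6 UMIs. Mdm2 averaged 54.5 CPM with SH045 and 20.7 CPM with Vehicle, from 48 and 10 UMIs. Zmat3 averaged 22.7 CPM with SH045 and 11.8 CPM with Vehicle, from 20 and 5 UMIs. The Vehicle values thus rest on few molecules per library, and Mdm2 stood at 0 CPM in Vehicle replicate 1. In the kept cells on the same scale Cdkn1a averaged 100.4 CPM with SH045 and 108 CPM with Vehicle, and its groups overlapped. Mdm2 averaged 31.3 CPM with SH045 and 23.9 CPM with Vehicle in the kept cells, and Zmat3 16.6 CPM with SH045 and 8.74 CPM with Vehicle, so that both were higher with SH045 there too.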

How the results depend on the processing

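Of the values for single genes under the alternatives, 1443 kept their side of the threshold, 24 gained a call and 27 lost one. No value with a call turned its direction, while values without a call changed sign under some settings. Members called with SH045 went to 1 in injured tubule without the low-count filter and with classes from clusters, where Bax passed, and to 1 in collecting duct principal cells with classes from clusters, where Cdkn1a passed (leaving out a library, 0 to 1, with 1 without Vehicle replicate 1). In whole libraries the 1 call became 2 with DESeq2 and 0 with the replicate block, with any library left out and with the trend on transcript length removed. In macrophages it became 2 without the filter and 2 with the replicate block, 0 with the length trend removed, and 0 to 2 with a library left out. In the other classes 0 became 1 with the highest Scrublet scores removed (Cdkn1a in intercalated cells) and 0 to 2 with a library left out. Against proximal tubule 2 calls became 4 with DESeq2, 4 with classes from clusters and 2 to 4 with a library left out. Against collecting duct principal cells 5 became 3 with DESeq2 and 3 to 5 with a library left out. The 13 S and G2/M genes that fell became 0 with classes from clusters, 6 among cells with a Havcr1 UMI and 7 to 12 with a library left out (these settings were chosen after seeing the data). The log2 difference of cycle genes by Cdkn1a UMI turned to −0.50 at 1000 UMIs per cell. It was 0.37 at a mitochondrial limit of 20%, and each of these settings drew its thinning anew. The cause was not tested. Genes called in injured tubule numbered 437, and 105 with the replicate block, 82 with the length trend removed, 762 without the filter, 756 with classes from clusters and 109 to 401 with a library left out. For whole libraries 713 became 1968 with DESeq2, 1322 without the filter, 458 with the length trend removed and as few as 119 with a library left out, and for macrophages 1290 became 854 with the replicate block, 549 with the length trend removed and as few as 205 with a library left out. In collecting duct principal cells 221 became 98 with the replicate block and 494 with classes from clusters, and in proximal tubule 3 became 36 and 22. The replicate numbers share no stated source, and the block gave Bax in whole libraries an adjusted p of 0.0566 by edgeR and Gdf15 in macrophages 0.0461. Monocytes could not be fitted with classes from clusters, since a library held none. Depth limits Cdkn2a and Eda2r, which passed the filter in few classes.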
